A study of Homo sapiens with 12 samples.

Results

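The genes described here were the heat shock proteins and co-chaperones, 36 genes chosen by symbol from the table of raw read counts. All 36 were among the 42157 genes of that table, and 34 had enough reads to be tested. They were examined in HL-60 cells, a human acute promyelocytic leukemia line that grows in suspension. The cells were treated for 3 h in 4 groups of 3 libraries each: ML-792+DNR (0.5 µM ML-792 with 1 µM DNR), ML-792 (0.5 µM), DNR (1 µM) and DMSO, the solvent control. DNR is daunorubicin, an anthracycline that intercalates into DNA and poisons topoisomerase II, and ML-792 blocks SUMO activation, the first step in the conjugation of this small modifier to target proteins. Each group was thus a population of 1 cell line under 1 dose and 1 time, and all values are transcript levels. The comparisons asked what each drug, and both together, did to chaperone transcripts within 3 h.

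Heat shock proteins are chaperones that bind unfolded or partly folded proteins. HSP70 proteins work in an ATP-driven cycle that J-domain proteins start and that nucleotide exchange factors, such as the HSP110 and BAG proteins, bring to its end, and HSP90 acts later on near-native clients with its own co-chaperones. Chaperonins fold proteins inside a ring, small heat shock proteins hold them in solution, and the heat shock factors HSF1 and HSF2 are transcription factors that bind heat shock elements, arrays of inverted GAA units, in the promoters of many of these genes. HSF1 itself is held inactive by chaperones in unstressed cells, and leukemia cells carry high levels of HSP90 and HSP70 proteins.

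The libraries held 28647951 to 46451654 reads in genes, of which the 36 genes took 1.83% to 2.19%. The 8 myeloid precursor markers, MPO and ELANE among them, summed to 10633 to 13823 CPM, the reads of a gene scaled to an equal library size, in every library, while lymphocyte, erythroid, and stromal and epithelial markers summed to at most 0.827, 1.28 and 3.07 CPM. The replicate 1 libraries had the largest mitochondrial share of reads within each group (4.01% to 6.37%, against 2.49% to 3.48% in replicates 2 and 3). Results that rest on replicate 1 are named below, and the part of that share in them was not tested.

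The promoters of the 5 genes called in any comparison are shown first, since these genes carry the main changes. Each sequence runs 5′ to 3′ in the direction of transcription, covers 250 bases before and 50 after a RefSeq start (GRCh38.p14), and has in capitals the GAA and TTC units of a heat shock element of 2 units (GAANNTTC or TTCNNGAA, searched on both strands). They lie at chr6:31815293-31815592 (HSPA1A, plus strand), chr6:31827488-31827787 (HSPA1B, plus strand), chr1:78004689-78004988 (DNAJB4, plus strand), chr10:119651130-119651429 (BAG3, plus strand) and chr7:108569624-108569923 (DNAJB9, plus strand).
HSPA1A: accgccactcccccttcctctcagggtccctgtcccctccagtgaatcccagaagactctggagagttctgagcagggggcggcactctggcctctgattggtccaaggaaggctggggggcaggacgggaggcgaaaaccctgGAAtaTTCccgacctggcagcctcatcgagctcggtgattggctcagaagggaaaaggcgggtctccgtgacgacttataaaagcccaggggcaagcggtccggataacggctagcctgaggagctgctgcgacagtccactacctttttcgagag
HSPA1B: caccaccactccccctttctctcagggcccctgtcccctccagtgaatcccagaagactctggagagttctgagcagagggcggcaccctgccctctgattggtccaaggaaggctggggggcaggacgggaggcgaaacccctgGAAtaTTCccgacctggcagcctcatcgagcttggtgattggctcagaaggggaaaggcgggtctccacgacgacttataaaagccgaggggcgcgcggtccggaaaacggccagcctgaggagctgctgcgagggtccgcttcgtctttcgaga
DNAJB4: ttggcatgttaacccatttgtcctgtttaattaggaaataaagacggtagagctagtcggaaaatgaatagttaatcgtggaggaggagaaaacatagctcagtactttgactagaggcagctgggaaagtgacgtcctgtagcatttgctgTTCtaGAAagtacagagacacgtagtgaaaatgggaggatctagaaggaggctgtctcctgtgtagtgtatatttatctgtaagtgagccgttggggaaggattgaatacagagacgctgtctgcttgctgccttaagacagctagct
BAG3: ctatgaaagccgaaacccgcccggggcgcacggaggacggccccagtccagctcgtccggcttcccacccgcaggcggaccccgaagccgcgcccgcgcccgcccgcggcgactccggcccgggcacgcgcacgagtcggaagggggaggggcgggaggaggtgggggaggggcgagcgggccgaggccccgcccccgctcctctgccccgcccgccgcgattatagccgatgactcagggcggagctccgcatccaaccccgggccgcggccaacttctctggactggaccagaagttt
DNAJB9: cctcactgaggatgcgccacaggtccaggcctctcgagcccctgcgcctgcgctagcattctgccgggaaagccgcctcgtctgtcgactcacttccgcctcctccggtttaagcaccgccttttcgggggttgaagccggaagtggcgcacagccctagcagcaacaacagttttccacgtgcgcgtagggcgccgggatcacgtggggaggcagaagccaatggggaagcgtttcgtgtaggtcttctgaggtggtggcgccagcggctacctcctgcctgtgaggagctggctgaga

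A 2-unit element began at position -106 from the start of HSPA1A, at -105 in HSPA1B and at -98 at this start of DNAJB4. The window at the other DNAJB4 start in RefSeq, and those of BAG3 and DNAJB9, held no exact match. Elements with a mismatched unit, or outside these windows, were not searched. The HSPA1A and HSPA1B promoters were identical at 277 of 301 aligned positions (92.0%). RefSeq gave 44 promoters for 32 of the 36 genes, and 17 of these 44 (38.6%) held a 2-unit element, against 13.5% of 35116 promoters of the same length in the whole table. A longer element of 3 units (GAANNTTCNNGAA or its reverse complement TTCNNGAANNTTC) was present in 7 of the 44 (15.9%), against 0.490% of all promoters. Every 3-unit match also holds 2 overlapping 2-unit matches. These are matches of letters, not measured binding. The 7 genes with a 3-unit element are shown over 60 bases each because they include the most abundant chaperones, HSP90AB1, HSP90AA1 and HSPA8.
HSPA8: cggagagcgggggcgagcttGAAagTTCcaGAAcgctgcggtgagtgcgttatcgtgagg
HSP90AA1: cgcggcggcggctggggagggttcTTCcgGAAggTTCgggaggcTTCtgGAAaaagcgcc
HSP90AB1: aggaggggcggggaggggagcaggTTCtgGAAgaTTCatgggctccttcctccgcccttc
HSPD1: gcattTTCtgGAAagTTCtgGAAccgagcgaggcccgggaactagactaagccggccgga
DNAJA1: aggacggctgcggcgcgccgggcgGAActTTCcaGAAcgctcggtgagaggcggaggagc
DNAJB6: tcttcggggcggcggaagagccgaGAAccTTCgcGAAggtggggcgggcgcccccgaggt
CHORDC1: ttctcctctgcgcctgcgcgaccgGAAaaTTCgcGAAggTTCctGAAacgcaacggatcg
These windows, on GRCh38.p14, are chr11:123062327-123062386 (HSPA8, minus strand), chr14:102087097-102087156 (HSP90AA1, minus), chr6:44247754-44247813 (HSP90AB1, plus), chr2:197500031-197500090 (HSPD1, minus), chr9:33025252-33025311 (DNAJA1, plus), chr7:157336849-157336908 (DNAJB6, plus) and chr11:90223074-90223133 (CHORDC1, minus). Of these 7 genes, only DNAJB6 passed the test in cells given DNR alone.

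Levels of different genes were compared per kb of summed exon length. HSP90AB1, the constitutive cytosolic HSP90, was highest at 1649 ± 151 CPM per kb in DMSO cells, followed by HSP90AA1, its inducible relative, at 679 ± 68.9 and HSPA8, the constitutive cytosolic HSP70, at 563 ± 22.9 CPM per kb (SD, n = 3 each). PTGES3, the HSP90 co-chaperone p23, and HSPD1, the mitochondrial chaperonin HSP60, stood next at 202 ± 10.0 and 193 ± 15.8 CPM per kb and did not differ beyond their spread. Divided by the longest transcript instead, HSP90AA1 and HSPA8 changed places (986 and 1183 CPM per kb), as did PTGES3 and HSPD1 (233 and 298 CPM per kb). HSPA1A (0.170 ± 0.0356 CPM per kb) and BAG3 (0.150 ± 0.0166 CPM per kb) were lowest of the tested genes, below HSPA1B at 5.37 ± 0.244, DNAJB9 at 4.31 ± 0.648 and DNAJB4 at 3.13 ± 0.292 CPM per kb in DMSO cells. The places of HSPA1A and HSPA1B depended on the length used, because few stretches of these near-identical copies are unique. Per 1000 unique 50-base exon windows, HSPA1A stood at 0.694 CPM and BAG3 at 0.169 CPM in DMSO cells, and HSPA1B stood at 19.2 CPM, near BAG1 (18.4) and HSPB1 (22.2) and above DNAJB9 (4.57) and DNAJB4 (3.48). On the scale of summed exon length, HSPA1B stood at 15.7 ± 1.90 and DNAJB4 at 10.3 ± 2.11 CPM per kb in DNR cells.

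**Figure D1:**
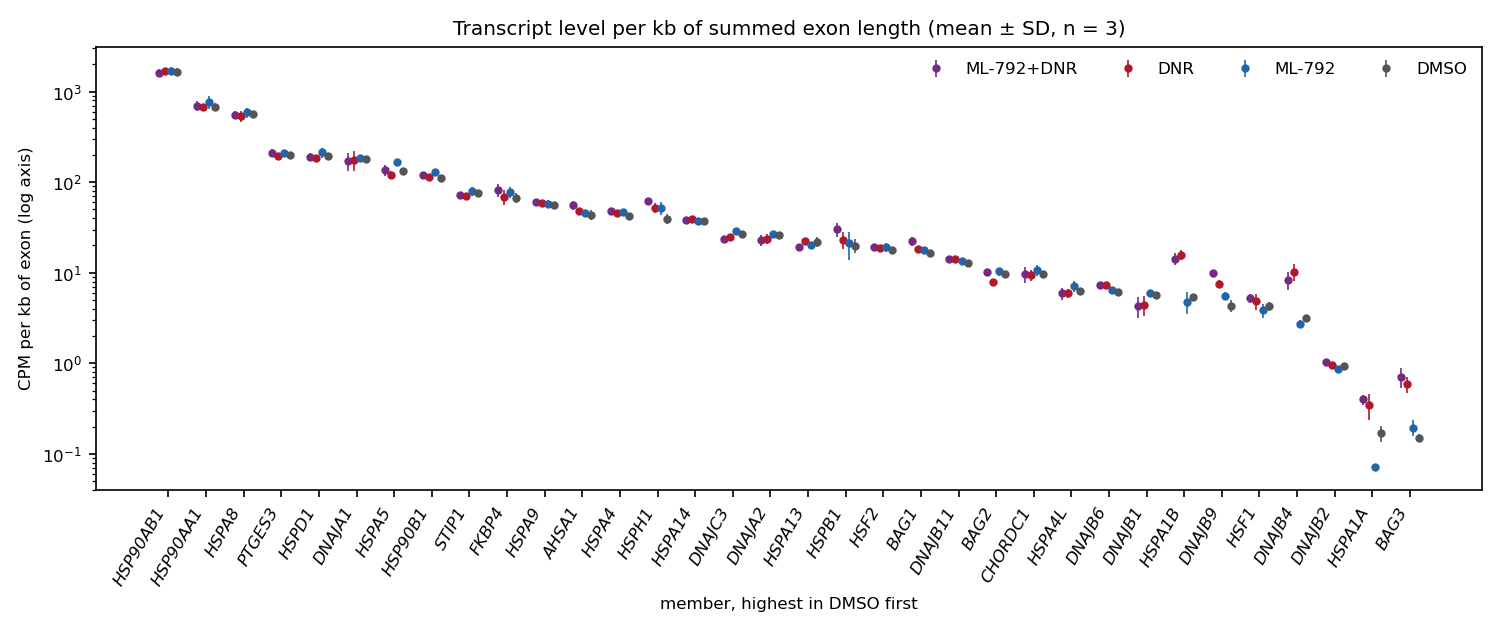
Transcript level of the 34 tested genes in CPM per kb of summed exon length on a log axis, as mean ± SD of 3 libraries in ML-792+DNR, DNR, ML-792 and DMSO cells, ordered by the level in DMSO. HSP90AB1 is highest in all 4 groups, and the DNR-containing groups of HSPA1A, HSPA1B, DNAJB4, DNAJB9 and BAG3 lie above the other groups.

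DNR alone raised the estimated level of 4 of the chaperone transcripts past 2-fold. HSPA1A and HSPA1B, the stress-inducible HSP70 genes, DNAJB4, a J-domain partner of HSP70, and BAG3, a nucleotide exchange factor that links HSP70 to autophagy, were called higher, which required a 2-fold change or more together with an adjusted p below 0.05. These were 4 of 34 genes (4.07% of all 13696 genes tested were called higher in this comparison and 2.91% lower), and none of the 34 was called lower. At an adjusted p below 0.05 with no fold minimum, 7 genes were higher and 1 was lower, against 14.3% and 15.7% of all genes. The median log2 fold change was 0.057 over the 34 genes and 0.0099 over all genes tested. In these bulk libraries, a change in the share of cells that carry a transcript and a change in its level per cell cannot be told apart.

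BAG3 (chr10:121410892-121437331 on GRCh37, plus strand) had 1.70, 1.27 and 1.90 CPM in DNR cells, against 0.389, 0.464 and 0.382 CPM in DMSO cells. All DNR libraries lay above all DMSO libraries. The log2 fold change was 1.98 ± 0.28 (SE, adjusted p = 0.000168, edgeR's quasi-likelihood test), although it rested on 41 to 61 reads per DNR library and 15 to 18 per DMSO library. DNAJB4 (chr1:78444859-78483648, plus strand) had 46.1, 30.5 and 37.6 CPM in DNR cells, against 11.4, 10.6 and 12.8 CPM in DMSO cells. The groups did not overlap, and the log2 fold change was 1.71 ± 0.17 (adjusted p = 1.29e-05).

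HSPA1B (chr6:31795515-31798031, plus strand) had 44.2, 34.6 and 39.9 CPM in DNR cells, against 12.8, 13.8 and 13.9 CPM in DMSO cells. Its log2 fold change was 1.55 ± 0.17 (adjusted p = 2.55e-05), with no overlap between the groups. HSPA1A (chr6:31783320-31785723, plus strand) had 1.12, 0.806 and 0.592 CPM in DNR cells, against 0.324, 0.495 and 0.408 CPM in DMSO cells. Its log2 fold change of 1.06 ± 0.29 (adjusted p = 0.0150) rested on 19 to 39 reads per DNR library. The test was no longer passed without DMSO replicate 1 (log2 fold change 0.89, adjusted p = 0.0787) or without DNR replicate 1 (0.79, adjusted p = 0.0979). Within replicate numbers, the HSPA1A log2 ratios were 1.80, 0.70 and 0.54, so that only replicate 1 exceeded 2-fold. These neighbouring genes are near-identical copies. Of the 50-base windows in their exons, 25.0% in HSPA1A and 28.4% in HSPA1B occurred once in the GRCh37 genome, with both strands searched. The share was 81.4% to 100% in the other members. Reads from 1 copy of HSPA1A and HSPA1B may therefore be missing or credited to the other. With the counts of both copies summed, the log2 fold change was 1.54 (adjusted p = 2.61e-05). The sum mostly repeats HSPA1B, which had 1585 reads in DMSO cells against 47 of HSPA1A.

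**Figure D2:**
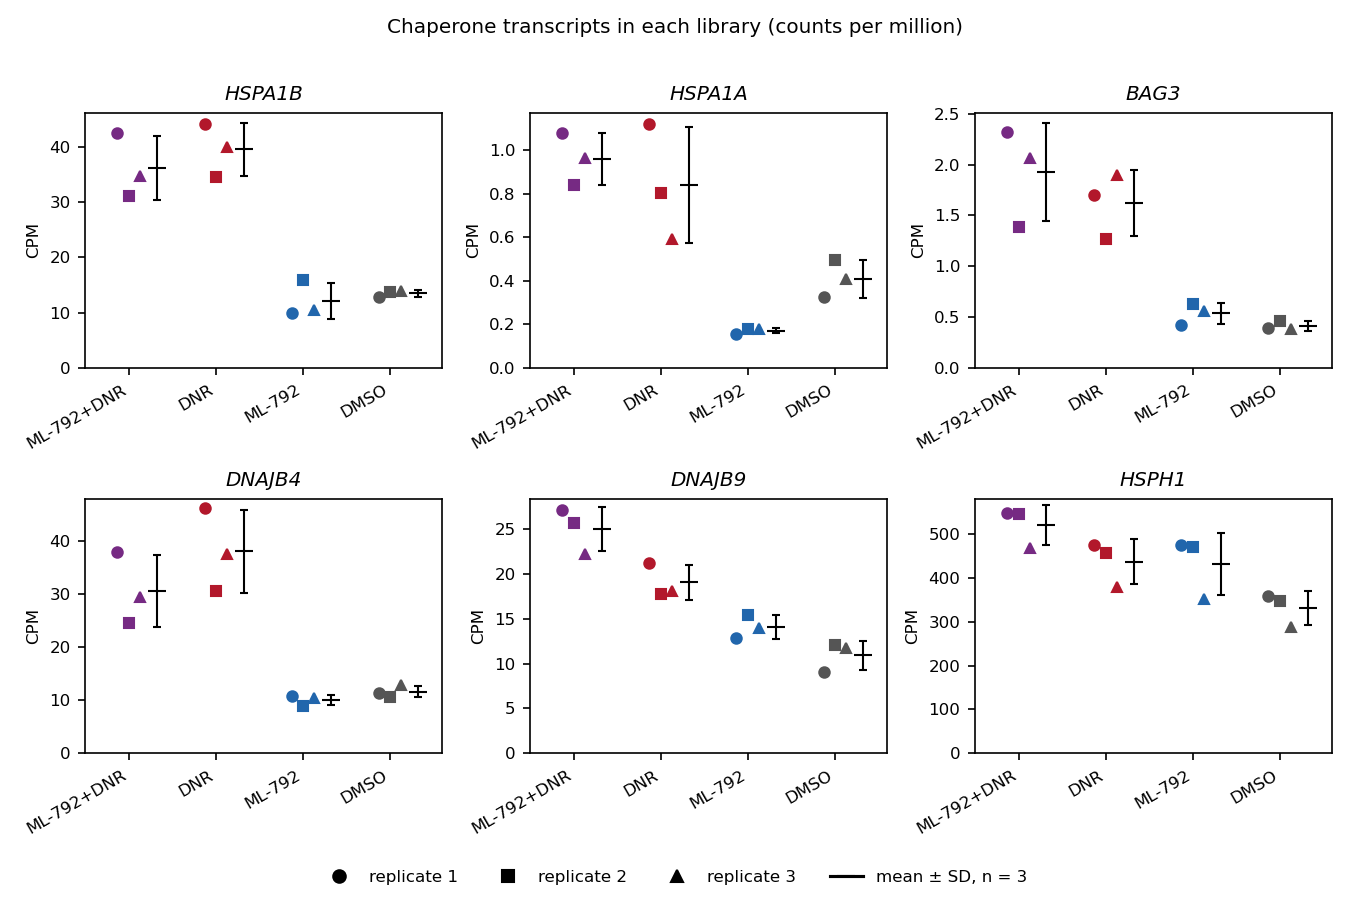
CPM in each of the 12 libraries for HSPA1B, HSPA1A, BAG3, DNAJB4, DNAJB9 and HSPH1, with the replicate number as the symbol and the mean ± SD of 3 libraries beside each group, in the order ML-792+DNR, DNR, ML-792 and DMSO. In every panel the libraries of both DNR-containing groups lie above all DMSO libraries, and for DNAJB9 the ML-792+DNR libraries (22.3 to 27.1 CPM) lie above the DNR libraries (17.8 to 21.3 CPM).

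Among the members that passed without reaching 2-fold in DNR cells, DNAJB9, a J-domain protein of the endoplasmic reticulum that serves the HSP70 protein BiP, had 21.3, 17.8 and 18.1 CPM in DNR cells, against 9.05, 12 and 11.7 CPM in DMSO cells. All DNR libraries were higher (log2 fold change 0.81 ± 0.13, adjusted p = 0.000586). HSPH1, the HSP110 exchange factor, had 476, 456 and 379 CPM in DNR cells, against 360, 346 and 287 CPM in DMSO cells. The groups did not overlap (0.40 ± 0.13, adjusted p = 0.0317), but the test was not passed when any of 5 of the 6 libraries was left out (all but DNR replicate 3), with adjusted p from 0.0507 to 0.153. Within replicate numbers, the HSPH1 log2 ratios of DNR to DMSO were 0.404, 0.396 and 0.401 in replicates 1, 2 and 3. With the replicate number in the edgeR fit, HSPH1 was at 0.40 ± 0.05 (adjusted p = 0.00014). The share of all genes that passed in that fit was not computed. DNAJB6, a J-domain protein that suppresses aggregation, was higher by 0.27 ± 0.06 on the log2 scale (adjusted p = 0.00705, and 0.0737 with replicates 2 and 3 only). With the replicate number in the fit, DNAJB6 was at 0.27 ± 0.05 (adjusted p = 0.00127). BAG2, an HSP70 exchange factor and inhibitor of the ligase CHIP, was lower (-0.28 ± 0.09, adjusted p = 0.0369). The BAG2 test was not passed without DMSO replicate 1 or 2 or without DNR replicate 1 or 3 (adjusted p 0.0745 to 0.131). With the replicate number in the fit, BAG2 was at -0.29 ± 0.06 (adjusted p = 0.00399). In the GENCODE annotation 42.7% of the BAG2 exon bases lie opposite RAB23 exons. Reads of the 2 genes may not be told apart there if the counting left strand out, and its strand setting is not known.

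The most abundant members of each role showed small differences with DNR. HSPA8 had 2257, 2984 and 2553 CPM in DNR cells, against 2855, 2680 and 2650 CPM in DMSO cells (log2 fold change -0.071, 95% interval -0.33 to 0.19). HSP90AB1 had 4867, 5419 and 4755 CPM in DNR cells, against 5383, 4875 and 4484 CPM in DMSO cells (0.029, interval -0.20 to 0.26). The groups overlapped for both genes.
HSPD1 had 1411, 1521 and 1316 CPM in DNR cells, against 1566, 1506 and 1334 CPM in DMSO cells (-0.053, interval -0.29 to 0.18). PTGES3 had 716, 627 and 622 CPM in DNR cells, against 716, 691 and 649 CPM in DMSO cells (-0.065, interval -0.26 to 0.13). Neither passed the test, and the libraries overlapped for both. HSPB1, the small heat shock protein HSP27, had 36.5, 29.7 and 45.8 CPM in DNR cells, against 26.6, 32.5 and 37.9 CPM in DMSO cells (0.21, interval -0.29 to 0.70).
BAG1, a further exchange factor, had 141, 129 and 123 CPM in DNR cells, against 121, 116 and 112 CPM in DMSO cells. The BAG1 groups did not overlap, yet the test was not passed (0.17 ± 0.09, adjusted p = 0.185). With the replicate number in the fit, BAG1 passed as higher (0.16 ± 0.05, adjusted p = 0.0302).

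Of the heat shock factors, HSF1 had 31.0, 24.6 and 21.1 CPM in DNR cells, against 19.9, 24.4 and 23.4 CPM in DMSO cells, and HSF2 had 51.5, 51.3 and 49.6 CPM, against 48.7, 48.6 and 46.4 CPM. The HSF1 groups overlapped, with the high value in DNR replicate 1, and the HSF2 groups did not. Neither gene passed the test (HSF1 0.18 ± 0.16, adjusted p = 0.426, and HSF2 0.085 ± 0.088, adjusted p = 0.515, on the log2 scale). Across the 26 members that did not pass, log2 fold changes ran from -0.37 for DNAJB1 to 0.21 for HSPB1. They included all 3 HSP90 genes (-0.00071 to 0.051) and all 5 HSP90 co-chaperones (-0.13 to 0.15).

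**Figure D3:**
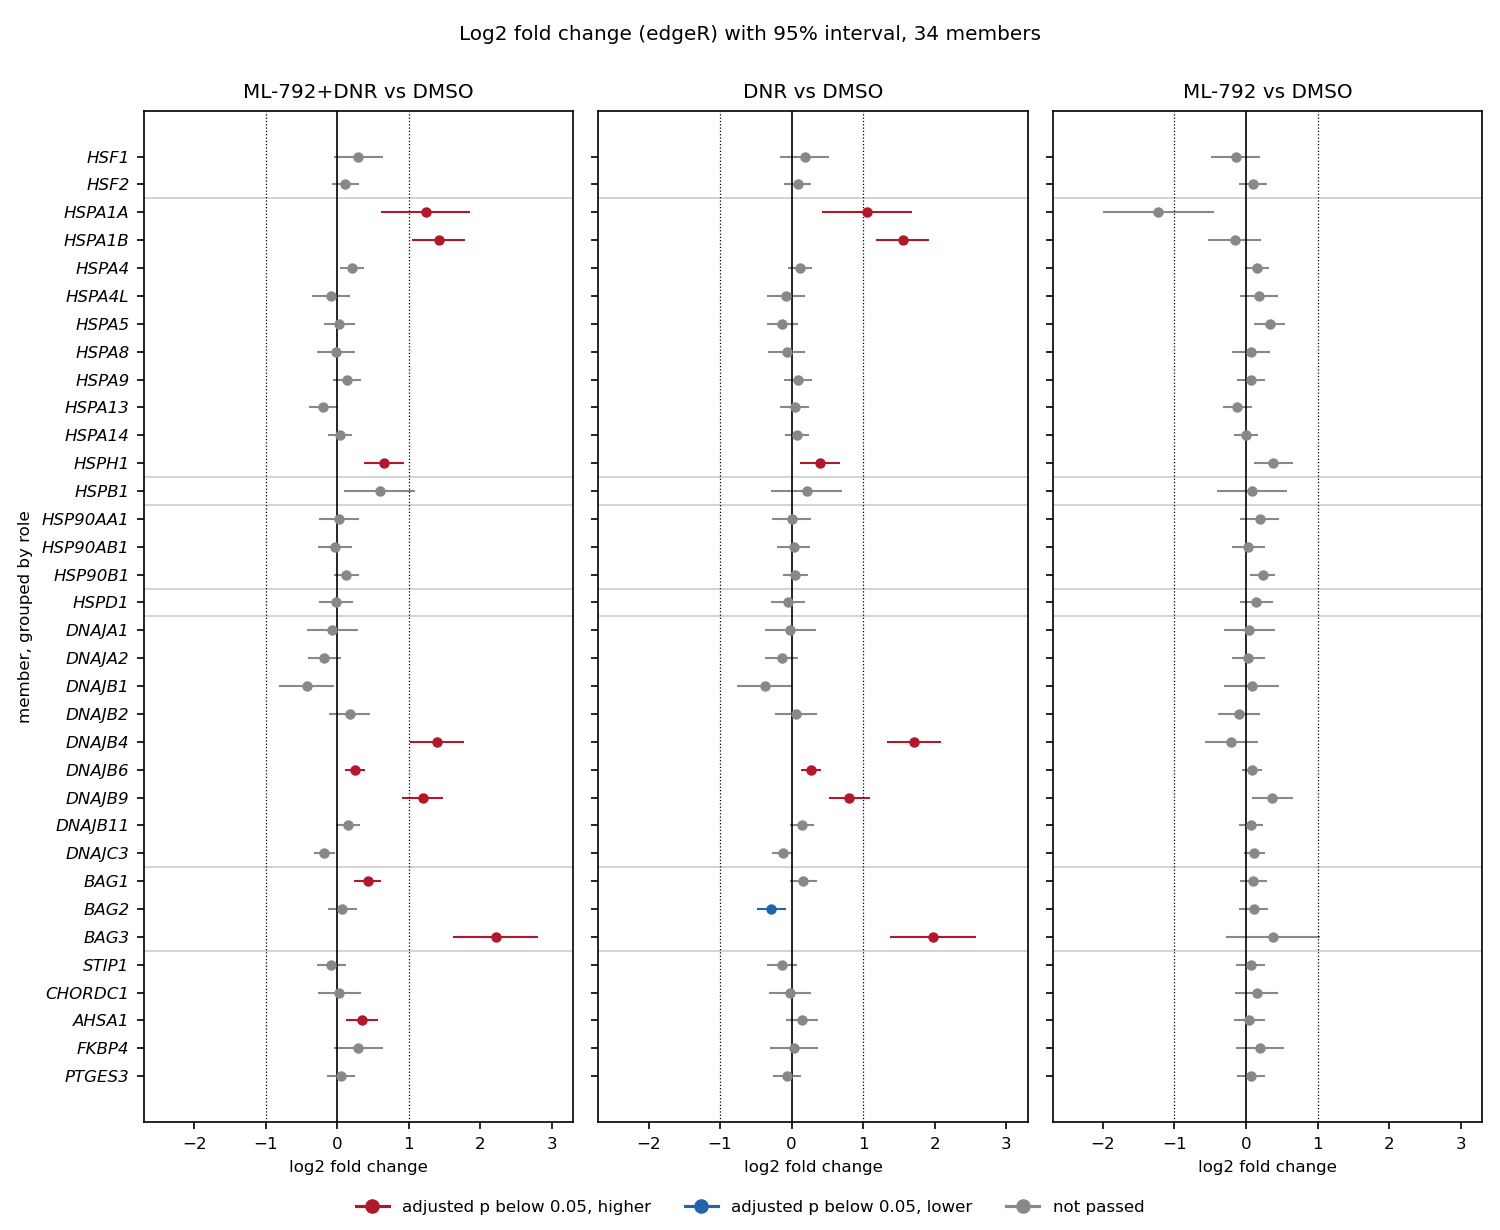
Log2 fold change of the 34 tested genes (points) with 95% intervals from the edgeR fit, in rows grouped by role, for ML-792+DNR, DNR and ML-792 against DMSO, with dotted lines at a 2-fold change. HSPA1A, HSPA1B, DNAJB4 and BAG3 lie beyond the 2-fold line in both DNR-containing comparisons, and no gene passed in the ML-792 comparison, where HSPA1A lies at -1.22 with a wide interval.

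The J-domain gene DNAJA1, a partner of cytosolic HSP70, and DNAJB1, the HSP40 that is among the classical heat shock genes, varied between replicates under DNR. DNAJA1 had 379, 602 and 432 CPM in DNR cells, against 496, 491 and 446 CPM in DMSO cells. DNAJB1 had 27.9, 45.8 and 34.7 CPM in DNR cells, against 49.6, 48.1 and 42.8 CPM in DMSO cells. In both, DNR replicate 2 was the highest DNR library, and the replicate with the lowest level was replicate 1. Within replicate numbers, the DNAJB1 log2 ratio of DNR to DMSO was -0.83, -0.072 and -0.30 in replicates 1, 2 and 3, and that of DNAJA1 was -0.39, 0.29 and -0.047. HSPA8 followed with -0.34, 0.15 and -0.054. Replicate 1 also had the largest mitochondrial share (6.27% in DNR and 4.01% in DMSO), whose part in this spread was not tested. Over all replicates DNAJB1 did not pass (-0.37, adjusted p = 0.131). With the replicate number in the fit, DNAJB1 passed as lower (-0.40 ± 0.14, adjusted p = 0.0346).

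**Figure D4:**
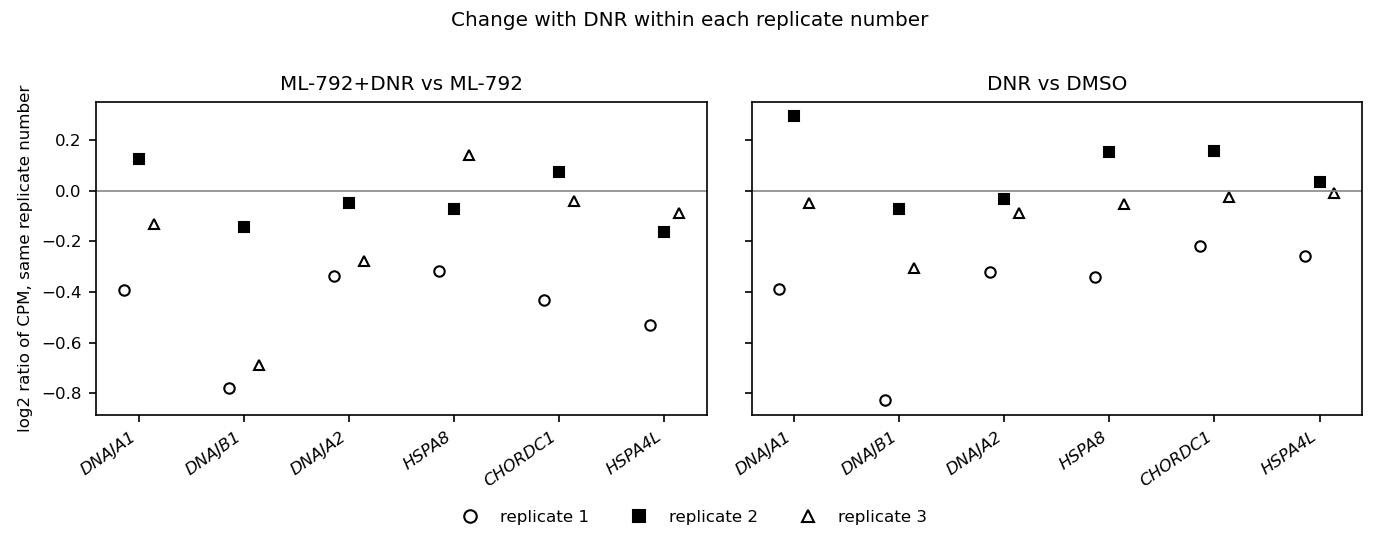
Log2 ratio of CPM between libraries of the same replicate number, ML-792+DNR to ML-792 and DNR to DMSO, for DNAJA1, DNAJB1, DNAJA2, HSPA8, CHORDC1 and HSPA4L, with 1 point per replicate. Replicate 1 gives the lowest ratio for every gene shown in both panels, reaching -0.83 for DNAJB1 in the DNR to DMSO panel. Other members went the other way, and replicate 1 gave the highest DNR to DMSO ratio for HSF1 (0.64), HSPB1 (0.46) and DNAJB4 (2.02) among them.

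ML-792 alone changed no chaperone transcript past the threshold. None of the 34 genes was called in edgeR's test (0.073% of all genes were called higher and 0.0073% lower) and none passed at an adjusted p below 0.05 (0.183% and 0.0584% of all genes), with 0 also in DESeq2 and limma voom. At an unadjusted p below 0.05 there were 5 of 34 members, HSPA1A, HSPA5, HSPH1, HSP90B1 and DNAJB9, against 697 of all 13696 genes. The median log2 fold change was 0.077 over the members and -0.0053 over all genes. HSPA1A had 0.158, 0.179 and 0.177 CPM in ML-792 cells, against 0.324, 0.495 and 0.408 CPM in DMSO cells. All ML-792 libraries were lower (log2 fold change -1.22 ± 0.36, adjusted p = 0.359), but each held only 6 reads. Its near-identical copy HSPA1B had 9.85, 15.9 and 10.5 CPM in ML-792 cells, against 12.8, 13.8 and 13.9 CPM in DMSO cells, and these groups overlapped (-0.16 ± 0.17).

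BAG3 had 0.420, 0.627 and 0.559 CPM in ML-792 cells (log2 fold change against DMSO 0.38, 95% interval -0.28 to 1.04) and DNAJB4 had 10.8, 8.95 and 10.5 CPM (-0.20, interval -0.58 to 0.17). The DMSO values are those given above, and both genes overlapped with them. DNAJB9 had 12.8, 15.5 and 13.9 CPM, above every DMSO library (0.37 ± 0.13, adjusted p = 0.643). HSPA5, which encodes BiP, the HSP70 of the endoplasmic reticulum, had 1056, 1148 and 1077 CPM in ML-792 cells, against 872, 914 and 816 CPM in DMSO cells, without overlap (0.33 ± 0.10, adjusted p = 0.395). HSPH1 had 475, 471 and 351 CPM in ML-792 cells, with overlap (0.38 ± 0.13, adjusted p = 0.555). With the replicate block, a fit that compares libraries of the same replicate number, HSPA5 (0.33 ± 0.06, adjusted p = 0.0310) and HSPH1 (0.38 ± 0.05, adjusted p = 0.00607) passed, while 0.759% of all genes passed as higher in that fit. Both genes were higher in 3 of 3 replicates. HSF1 and HSF2 overlapped with DMSO under ML-792 (-0.14 ± 0.16 and 0.10 ± 0.09 on the log2 scale).

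HSPA1A, HSPA1B, DNAJB4, DNAJB9 and BAG3, 5 of 34 genes, were called higher in ML-792+DNR cells against DMSO cells, and none lower (3.93% of all genes were called higher and 2.56% lower). At an adjusted p below 0.05, 9 members were higher and 0 lower, against 17% and 18.4% of all genes. The 0 in edgeR stands beside 1 in DESeq2 and 0 in limma voom, and beside 2 members with a negative log2 fold change at an unadjusted p below 0.05, DNAJB1 and DNAJC3. In either direction, 13 of 34 members and 6244 of all 13696 genes had an unadjusted p below 0.05. The median log2 fold change was 0.12 over the members and 0.015 over all genes. This comparison and the one of DNR share the DMSO libraries, so that they are not independent of each other.

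BAG3 had 2.32, 1.39 and 2.07 CPM in ML-792+DNR cells (log2 fold change against DMSO 2.22 ± 0.28, adjusted p = 7.73e-05). HSPA1B had 42.4, 31.2 and 34.8 CPM (1.42 ± 0.17, adjusted p = 5.91e-05). HSPA1A had 1.08, 0.839 and 0.964 CPM from 28 to 35 reads (1.24 ± 0.29, adjusted p = 0.00521). In these 3 genes every ML-792+DNR library lay above every DMSO library. DNAJB4 had 37.8, 24.5 and 29.3 CPM (1.40 ± 0.17, adjusted p = 7.34e-05), and DNAJB9 had 27.1, 25.7 and 22.3 CPM (1.20 ± 0.13, adjusted p = 3.47e-05). Neither overlapped with DMSO.

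HSPH1 also passed, with 548, 546 and 468 CPM in ML-792+DNR cells (0.65 ± 0.13, adjusted p = 0.00189), above every DMSO library. BAG1 had 177, 153 and 140 CPM, above all DMSO libraries (0.42 ± 0.09, adjusted p = 0.00288). AHSA1, the activator of the HSP90 ATPase, was higher by 0.34 ± 0.10 with overlapping libraries (adjusted p = 0.0192), and its test was not passed without DMSO replicate 1 or 3 or without ML-792+DNR replicate 1 or 2 (adjusted p 0.0599 to 0.105). DNAJB6 was higher by 0.25 ± 0.06 (adjusted p = 0.00973, and 0.0521 without DMSO replicate 3). HSPB1 had 42.8, 45.7 and 58.2 CPM, above every DMSO library, but missed the threshold (0.60 ± 0.23, adjusted p = 0.0581). HSF1 and HSF2 lay above every DMSO library too, without passing (0.30 ± 0.16, adjusted p = 0.165, and 0.11 ± 0.09, adjusted p = 0.334). The 3 HSP90 genes and HSPD1 lay between -0.029 and 0.13 on the log2 scale, and HSPA8 at -0.020 (2397, 2991 and 2686 CPM). HSP90AB1 had 4577, 5335 and 4536 CPM, HSPD1 1428, 1609 and 1317 CPM, and PTGES3 784, 715 and 634 CPM, all overlapping with DMSO.

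With the replicate block, 13 members passed as higher (24.5% of all genes) and 3 as lower (24.4% of all genes) in ML-792+DNR cells against DMSO cells. The added higher genes were HSPA4, HSPA9, HSPB1 and FKBP4, which are an HSP110 relative, the mitochondrial HSP70, HSP27 and an HSP90-binding immunophilin, with log2 fold changes of 0.21, 0.13, 0.60 and 0.29. The lower genes were the J-domain genes DNAJA2, DNAJB1 and DNAJC3, at -0.19, -0.46 and -0.18.

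To ask whether ML-792 moved chaperone levels in DNR-treated cells, ML-792+DNR was set against DNR. None of the 34 genes was called (0.0949% of all genes were called higher and 0.102% lower), and none passed at an adjusted p below 0.05 in edgeR (0.256% and 0.489%) or limma voom, with 1 higher in DESeq2. The members below an unadjusted p of 0.05 were 4 of 34, HSPA13, DNAJB9, BAG1 and BAG2, against 1768 of all 13696 genes. The median log2 fold change was 0.051 over the members and 0.0015 over all genes. Without the pairing of replicates, the log2 fold changes were -0.13 for HSPA1B (95% interval -0.49 to 0.22), 0.18 for HSPA1A (-0.40 to 0.76), 0.23 for BAG3 (-0.29 to 0.76) and -0.32 for DNAJB4 (-0.68 to 0.040). Within replicate numbers, HSPA1B was lower in 3 of 3 and BAG3 higher in 3 of 3. DNAJB4 was lower in 3 of 3, with log2 ratios of -0.28, -0.32 and -0.36, and with the replicate block it was at -0.32 ± 0.10 (adjusted p = 0.107). DNAJB9 was higher in every ML-792+DNR library than in any DNR library (0.39 ± 0.13, adjusted p = 0.214).

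The replicate numbers paired the libraries in this comparison, and with the replicate block 4 members passed as higher in ML-792+DNR cells (1.65% of all genes did). They were BAG2 (0.35 ± 0.06, adjusted p = 0.0121), FKBP4 (0.27 ± 0.05, adjusted p = 0.0190), HSPH1 (0.26 ± 0.05, adjusted p = 0.0234) and BAG1 (0.26 ± 0.05, adjusted p = 0.0255). BAG2 had 68.1, 72.0 and 61.4 CPM in ML-792+DNR cells, against 51.1, 57.1 and 49.2 CPM in DNR cells. FKBP4 had 440, 489 and 353 CPM in ML-792+DNR cells, against 350, 429 and 290 CPM in DNR cells. The BAG2 libraries did not overlap and the FKBP4 libraries did. The within-replicate log2 ratios of BAG2 were 0.41, 0.33 and 0.32, and those of FKBP4 were 0.33, 0.19 and 0.28, in replicates 1, 2 and 3.

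**Figure D5:**
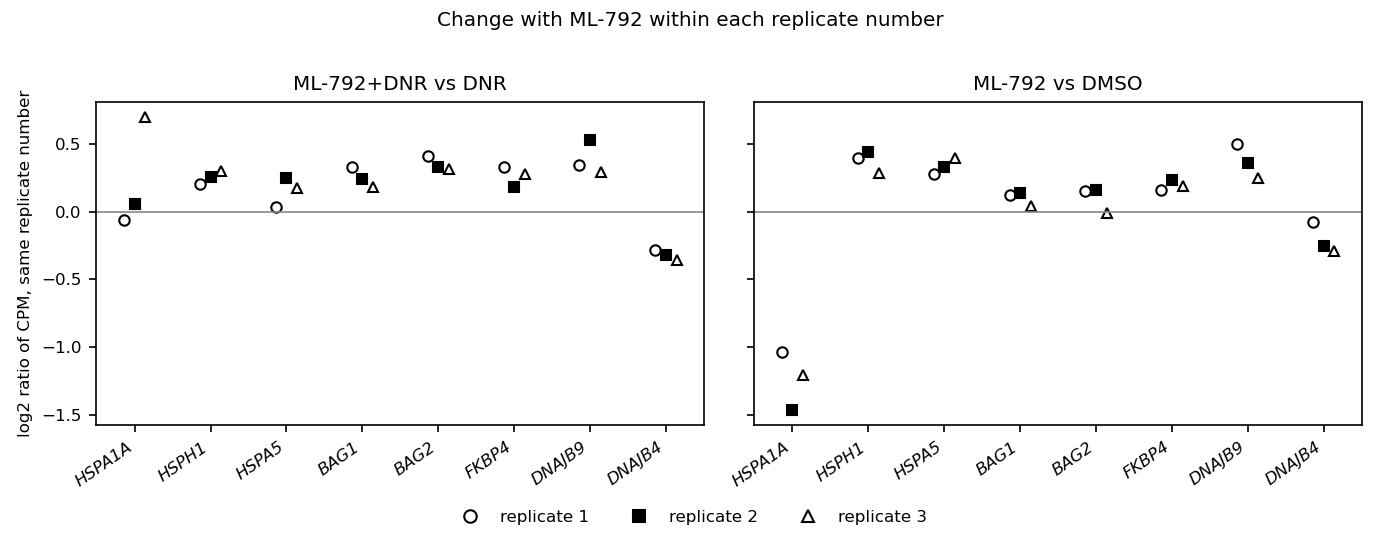
Log2 ratio of CPM between libraries of the same replicate number, ML-792+DNR to DNR and ML-792 to DMSO, for HSPA1A, HSPH1, HSPA5, BAG1, BAG2, FKBP4, DNAJB9 and DNAJB4, with 1 point per replicate. The points of HSPH1, BAG1, BAG2 and FKBP4 in the ML-792+DNR to DNR panel lie between 0.19 and 0.41, and HSPA1A lies below -1 in all 3 replicates of the ML-792 to DMSO panel.

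The effect of DNR in cells that also received ML-792 was read from ML-792+DNR against ML-792. HSPA1A, HSPA1B, DNAJB4 and BAG3 were called higher, 4 of 34 genes, and none lower (3.68% and 2.66% of all genes). Their log2 fold changes were 2.46 ± 0.33, 1.58 ± 0.17, 1.60 ± 0.17 and 1.84 ± 0.27, and in each gene the 3 ML-792+DNR libraries lay above the 3 ML-792 libraries. At an adjusted p below 0.05, 8 members were higher and 3 lower (16.3% and 17.4% of all genes), with a median of 0.029 over the members and 0.016 over all genes. The other higher genes were DNAJB9 (0.83 ± 0.13), HSF1 (0.44 ± 0.16), BAG1 (0.32 ± 0.09) and AHSA1 (0.29 ± 0.10). HSF1 had 30.6, 24.5 and 28.0 CPM in ML-792+DNR cells, against 16.2, 22.0 and 23.0 CPM in ML-792 cells. These did not overlap, but the HSF1 test (adjusted p = 0.0484) was not passed in 15 of 22 alternative analyses, among them those without ML-792 replicate 1 or 2, ML-792+DNR replicate 1 or 3, DNR replicate 2 or 3, or any DMSO replicate (adjusted p 0.0507 to 0.184). HSF2 had 49.1, 56.5 and 50.01 CPM in ML-792+DNR cells, against 54.7, 54.2 and 45.1 CPM in ML-792 cells (0.015 ± 0.089).

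Lower in ML-792+DNR cells than in ML-792 cells were HSPA5, DNAJC3 and DNAJB1. DNAJC3, a J-domain partner of BiP, had 134, 135 and 125 CPM in ML-792+DNR cells, against 172, 162 and 152 CPM in ML-792 cells (-0.30 ± 0.07, adjusted p = 0.00517). With replicates 2 and 3 only, the DNAJC3 test was not passed (adjusted p = 0.0636). HSPA5 had 780, 1030 and 848 CPM in ML-792+DNR cells, against the 1056 to 1148 CPM of ML-792 cells (-0.30 ± 0.10, adjusted p = 0.0333). DNAJB1 had 27.9, 45.1 and 31.3 CPM in ML-792+DNR cells, against 48.0, 49.8 and 50.5 CPM in ML-792 cells (-0.50 ± 0.18, adjusted p = 0.0430). None of these genes overlapped between the groups, and ML-792+DNR replicate 2 came nearest to ML-792 in HSPA5 and DNAJB1. The DNAJB1 test was not passed without any 1 of 8 libraries, ML-792 replicates 1, 2 and 3, ML-792+DNR replicates 1 and 3, DMSO replicates 1 and 2 and DNR replicate 3 (adjusted p 0.0517 to 0.168), and the HSPA5 test without ML-792 replicate 1 or 2 or ML-792+DNR replicate 1 or 3 (0.0516 to 0.142). BAG1 lost its place without ML-792 replicate 3 or ML-792+DNR replicate 1 (0.0563 and 0.104), and AHSA1 without any 1 of 9 libraries, all but DMSO replicates 2 and 3 and ML-792+DNR replicate 3 (0.0535 to 0.147). DNAJA1 had 389, 573 and 404 CPM in ML-792+DNR cells, against 510, 526 and 442 CPM in ML-792 cells, again with the high value in replicate 2 (-0.11 ± 0.17).

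With the replicate block, 11 members were higher (23.4% of all genes) and 6 lower (23.3% of all genes) in this comparison. Added were HSPH1 (0.28), HSPB1 (0.54) and DNAJB6 (0.17) as higher, and HSPA4L (-0.26), DNAJA2 (-0.22) and STIP1 (-0.14), the adaptor between HSP70 and HSP90, as lower.

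Whether the effect of DNR differed with and without ML-792 was tested as an interaction. No member and no other gene passed (0% of all genes called higher, none lower, in edgeR), and the same was found for the members in DESeq2 and limma voom. An unadjusted p below 0.05 was reached by 1 of 34 members, against 493 of all 13696 genes. This member was HSPA1A, with a difference of log2 fold changes of 1.40 ± 0.45 (adjusted p = 0.999). It rests on the 6 reads per ML-792 library given above. With both copies summed the difference was 0.059. That sum follows HSPA1B, with 1266 reads in ML-792 cells against 18 of HSPA1A, and cannot judge the HSPA1A value. For HSPA1B it was 0.028 (95% interval -0.48 to 0.54), for DNAJB4 -0.12 (-0.63 to 0.40), for DNAJB9 0.025 (-0.38 to 0.43) and for BAG3 -0.14 (-0.98 to 0.69).

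The 2 members that were not tested differed from each other. CRYAB, a small heat shock protein best known from lens and muscle, had 2 reads in DMSO replicate 3 and 0 in the other 11 libraries, and a count of 0 over the DNR libraries allows up to 0.0302 CPM (3 reads over the group, counting error only). HSPE1, the HSP10 partner of HSPD1 in the mitochondrial chaperonin, was listed at 0 in all 12 libraries. The adjoining gene MOB4 was listed at 0 as well, and the read-through gene HSPE1-MOB4 had 14 to 45 reads per library. HSPD1, which shares its promoter region with HSPE1, had 1316 CPM or more in every library, and why HSPE1 is listed at 0 was not tested. No level of HSPE1 can therefore be read from these counts. HSPE1-MOB4 was called higher in ML-792+DNR cells (log2 fold change 1.17 ± 0.32, adjusted p = 0.0132) and in DNR cells (1.26 ± 0.32, adjusted p = 0.00962), each against DMSO.

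Changes were also present among chaperone genes outside the 36. Of 10 tested genes on a list of other heat shock genes and HSF1 targets (24 listed), 4 passed as higher in ML-792+DNR cells and 6 in DNR cells against DMSO, and none as lower, with medians of 0.37 in both comparisons. HSPA6, an HSP70 gene that is nearly silent without stress, had 1.44, 1.08 and 1.27 CPM in ML-792+DNR cells, 0.634, 0.651 and 0.468 CPM in DNR cells, and 0.151, 0.371 and 0.102 CPM in DMSO cells. All libraries of both treated groups lay above the DMSO libraries (2.64 ± 0.39, adjusted p = 0.000273, for ML-792+DNR and 1.54 ± 0.42, adjusted p = 0.0142, for DNR). HSPA1L, the testis HSP70 gene that lies beside HSPA1A, had 1.67, 1.18 and 0.811 CPM in DNR cells, against 0.432, 0.309 and 0.561 CPM in DMSO cells (1.47 ± 0.31, adjusted p = 0.00303), and it did not pass in ML-792+DNR cells (0.52 ± 0.33). Both HSPA6 and HSPA1L thus started from low levels in DMSO cells, and their tests were not followed through the alternative analyses.

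Of 14 genes of the TRiC chaperonin and its partner prefoldin, 5 passed as higher in ML-792+DNR cells and 1 in DNR cells against DMSO, with medians of 0.21 and 0.13. Of 27 tested genes for further J-domain proteins, 4 were higher and 11 lower in ML-792+DNR cells, and 3 higher and 7 lower in DNR cells, with medians of -0.17 and -0.087. DNAJC14 fell to 10.1, 15.4 and 11.0 CPM in ML-792+DNR cells and to 9.11, 13.5 and 10.4 CPM in DNR cells, against 43.1, 38.2 and 39.2 CPM in DMSO cells (-1.71 ± 0.16 and -1.87 ± 0.16). DNAJC4 was called higher, by 1.06 ± 0.22 and 1.00 ± 0.22. Of 22 tested cofactors of HSP90 and HSP70, 8 were higher and 2 lower in ML-792+DNR cells, and 5 higher and 1 lower in DNR cells. Of 17 tested chaperones of the endoplasmic reticulum, 5 were higher and 2 lower in ML-792+DNR cells, and 3 higher and 3 lower in DNR cells. Of 12 mitochondrial chaperones and proteases, 3 were higher and 1 lower in each comparison. These shares stand beside the 17% higher and 18.4% lower of all genes in ML-792+DNR cells, and the 14.3% and 15.7% in DNR cells. In ML-792 cells no gene on any of these lists passed, as was so for ML-792+DNR against DNR.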

How the data were processed

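RNA was sequenced from 12 libraries, 3 per group, each replicate number being an independent experiment per the study's methods, so that p-values measure the spread between these experiments. The authors mapped the reads to hg19 with TopHat2 2.1.1 and Bowtie2 2.3.5.1 and deposited raw read counts per gene from HTSeq 0.11.1, the only values used here. The study's methods name a stranded mRNA library kit. For the strand setting of the counting, the sources used here give nothing. Picard, Cufflinks 2.2.1 and DESeq2 are further tools in the processing notes of the submitters. A deposited table of normalized values and one of the authors' own fold changes and p-values were not used. Between 26.6% and 29.2% of the reads per library did not map uniquely, and rows that name no gene stayed out of library sizes.

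Counts were filtered with filterByExpr (minimum count 10, total 15), scaled by TMM and tested with edgeR 4.0.16 (quasi-likelihood, all 4 groups in 1 fit, two-sided) in R 4.3.3, with Benjamini-Hochberg adjustment over all 13696 genes. A call needed an adjusted p below 0.05 and a 2-fold change. CPM used TMM-scaled library sizes. Intervals are 95% intervals from the fit. The procedure was tested on simulated data. The members, lists, tests and alternatives were chosen with earlier results of these data known. Values per library were given for called members, for HSF1 and HSF2 and for the most abundant member of each role, and other members were named where they passed a test or the text turned on them, the latter after their values were seen.

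Same-numbered libraries of different groups deviated together from their group means (18 pairs, r from 0.0722 to 0.587, against -0.498 to 0.0913 in 36 differently numbered pairs). Every pair exceeded 0.1 in 4 comparisons. DNR against DMSO (r of 0.0852, 0.249 and 0.336 in replicates 1, 2 and 3) and the interaction (lowest r 0.0722) were not treated as paired. Each had a lowest r below 0.1. For DNR against DMSO, the outcome for DNAJB1 and BAG1 depended on this choice, and both fits are given. Alternatives were DESeq2 1.42.0, limma voom 3.58.1, other scalings, filters and fold minima, the replicate block, fits of the compared groups alone, each library left out, and replicates 2 and 3 or, added after the data were seen, 1 and 3 alone. Promoters and starts came from RefSeq (GRCh38.p14), gene positions and exon lengths from GENCODE on GRCh37, and figures from matplotlib 3.10.9 with Python 3.11.15. The promoters of HSPA1A and HSPA1B were aligned with biopython 1.88.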

Additional observations from a re-analysis of the deposited data

How the results depend on the processing

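HSPA1B, DNAJB4, BAG3 and DNAJB9 stayed at an adjusted p below 0.05 in all 22 alternatives in each comparison of a DNR-containing group with a group without DNR. HSPA1A lost its place with replicates 2 and 3 only, in ML-792+DNR against DMSO (log2 fold change 0.99, adjusted p = 0.0825) and in DNR against DMSO (0.62, adjusted p = 0.291). DNAJB6 lost its place with no count filter (adjusted p = 0.0651 in ML-792+DNR and 0.0525 in DNR, each against DMSO). With no fold minimum, 7 higher and 1 lower members were called in DNR against DMSO, 9 higher in ML-792+DNR against DMSO, and 8 higher and 3 lower in ML-792+DNR against ML-792.

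Counts of members at an adjusted p below 0.05 moved as follows. The share of all genes at that threshold was not computed for these settings. The counts therefore describe the fits and cannot be read as a result about the members. In DNR against DMSO, 2 were lower with no count filter, and with replicates 2 and 3 only 4 were higher and 0 lower. In ML-792+DNR against DMSO, 1 was lower by DESeq2, 2 with library size only, 1 with no count filter, 1 with a mean of at least 1 CPM and 3 with replicates 1 and 3 only. In ML-792+DNR against DNR, 1 was higher by DESeq2. In ML-792+DNR against ML-792, 5 were higher in the fit of those groups alone, 5 with replicates 2 and 3 only, when 0 were lower, and 5 with replicates 1 and 3 only. Leaving out 1 library gave 0 to 2 lower members in DNR against DMSO, 0 to 2 lower in ML-792+DNR against DMSO, and 5 to 7 higher and 1 to 5 lower in ML-792+DNR against ML-792. Replicate 2 was left out after DNAJB1 had been seen to change least there, so that the counts from replicates 1 and 3 support no change. The fits that left out libraries or replicates also had fewer libraries, and the causes of these shifts were not tested.

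The replicate block gave 2 higher members in ML-792 against DMSO, 4 higher in ML-792+DNR against DNR, 13 higher and 3 lower in ML-792+DNR against DMSO, and 11 higher and 6 lower in ML-792+DNR against ML-792, as named in the report. In DNR against DMSO, which was not treated as paired, it gave 2 lower members by adding DNAJB1 (-0.40, adjusted p = 0.0346) and 8 higher by adding BAG1 (0.16, adjusted p = 0.0302). The share of all genes that passed in this blocked fit was not computed. These counts therefore cannot be read as a result about the members. No member gained or lost a 2-fold call with the block.

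The interaction values near 0 changed sign in some alternatives and never passed the test. HSPA1B was -0.10 with replicates 2 and 3 only and ran from -0.10 to 0.28 as 1 library was left out. DNAJB9 was -0.032 with replicates 1 and 3 only and ran from -0.044 to 0.16 without 1 library, DNAJB4 from -0.30 to 0.044 and BAG3 from -0.30 to 0.055. Depth limits HSPA1A and BAG3, which had 6 to 39 and 15 to 71 reads per library, more than the other tested members.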
